A study of Mus musculus with 12 samples.

Results

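The genes described here are 8 genes of the activin A and TGF-β pathway: Inhba, Tgfb1, Tgfbr1, Tgfbr2, Smad3, Smad7, Ski and Skil. They were picked by symbol from the 55335 genes listed in each library, and the set was built around Inhba because of its response to the combination of LPS and JSH-23. The value that chose it was the interaction, which is the log2 change with LPS after JSH-23 minus the log2 change with LPS alone. Among genes that reached 10 CPM (counts scaled to one common library total) in some group and had more than 3 counts in every library, the value for Inhba was -2.07, and the next genes were Il12b at -1.92, Shisa3 at -1.72 and Dll4 at -1.60. Over all 14357 genes tested, 30 genes, which did not meet those conditions, had a more negative value. The values of Inhba are therefore given as a description without a test, whereas the other 7 members were tested. All 8 members passed the low-count filter.

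RNA-seq had been carried out on 12 libraries of bone marrow-derived dendritic cells (BMDC) of C57BL/6 mice that carried the CreER transgene. Marrow was cultured with GM-CSF for 6 days with a change of medium every 2 days, and the methods of the study describe floating cells enriched for CD11c, an integrin of dendritic cells, on beads. There were 4 groups of 3 libraries. WT cells were untreated, WTL cells received LPS at 100 ng/ml for 3 h, WT + JSH23 cells received JSH-23 at 100 µM for 3 h, and WTL + JSH23 cells received JSH-23 first and then LPS at the same doses. LPS is a bacterial cell wall component sensed through TLR4, and JSH-23 is an inhibitor of the nuclear entry of the NF-κB subunit p65. All 4 groups were CreER with intact Ctcf, the gene that the wider study deleted. The methods of the study name 3 biological replicates per condition for RNA-seq. The labels do not say whether the cultures received tamoxifen or whether solvent was added in place of JSH-23. They also do not say how many mice stood behind a library, so the spread between libraries may still be partly technical. Replicates of WT and WTL carried the numbers 4 to 6 and those of the JSH-23 groups the numbers 1 to 3, so a difference in preparation between the numbered sets and the effect of JSH-23 cannot be told apart.

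Activin A is a dimer of the protein encoded by Inhba. It and TGF-β1 bind type II receptors that recruit and phosphorylate type I receptors, which in turn phosphorylate SMAD2 and SMAD3. These SMADs enter the nucleus with SMAD4 and regulate target genes. SMAD7 is an inhibitory SMAD that acts on the receptors, and SKI and SKIL (SnoN) are co-repressors that bind the SMADs on DNA. In dendritic cells and macrophages, activin A is secreted after stimulation of Toll-like receptors, and TGF-β1 is known for restraining their activation.

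The bases upstream of the ligand genes Inhba and Tgfb1 are shown because these genes encode the secreted signals of the set and because JSH-23 acts on NF-κB. The sequences are from RefSeq (GRCm38.p6), 250 bases 5′ to 3′ on the plus strand up to the annotated start. Capitals mark matches to the TATA box letters TATAAA or to a κB-like pattern, GGG and CC with any 5 bases between them, on either strand. Inhba lies at chr13:16011851-16031621 and its upstream stretch at chr13:16011601-16011850. Tgfb1 lies at chr7:25687002-25705077 and its upstream stretch at chr7:25686752-25687001.
Inhba: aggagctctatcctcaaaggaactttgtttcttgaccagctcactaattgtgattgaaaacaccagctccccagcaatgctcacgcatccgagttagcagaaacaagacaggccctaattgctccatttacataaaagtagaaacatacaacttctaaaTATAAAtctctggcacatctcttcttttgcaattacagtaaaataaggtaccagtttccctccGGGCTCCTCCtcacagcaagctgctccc
Tgfb1: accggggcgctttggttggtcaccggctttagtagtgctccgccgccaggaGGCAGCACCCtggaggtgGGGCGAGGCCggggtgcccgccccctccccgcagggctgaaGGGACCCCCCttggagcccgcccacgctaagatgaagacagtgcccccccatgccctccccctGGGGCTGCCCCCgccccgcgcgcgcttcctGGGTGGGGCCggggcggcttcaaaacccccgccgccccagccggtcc

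The 2 stretches differed in base composition and in the letters they held. G and C made up 43.2% of the Inhba stretch and 75.2% of the Tgfb1 stretch, against a median of 52.4% over all RefSeq promoters, and 19.0% and 96.1% of promoters, respectively, had less. The Inhba stretch held 1 TATA box match, whose first base lay at -91 from the start, and 1 κB-like match at -28. The Tgfb1 stretch held no TATA box match and 7 κB-like matches, 3 of which overlap one another. Of the 32851 promoters of this length, 12.4% held the TATA box letters and 45.8% the κB-like pattern. Neither stretch held the AP-1 letters TGANTCA (in 6.75% of promoters), the CRE letters TGACGTCA (1.55%) or the SMAD box letters CAGAC (42.2%). A match is a description of letters and was not tested for binding. RefSeq stretches were matched for 6 of the 8 members.

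The libraries held between 24664724 and 34837847 expected counts. The dendritic cell gene Itgax, which encodes CD11c, averaged between 598 and 656 CPM in the 4 groups, and the summed level of 6 dendritic cell markers was between 11900 and 15400 CPM in every library. Of the markers of other cells, 6 macrophage genes summed to 1600 to 2460 CPM, with Cd14, an LPS co-receptor, at 239 CPM in WT and 1270 CPM in WTL. Neutrophil markers summed to 25.8 to 41.4 CPM, mast cell and basophil markers to at most 8.21 CPM, and B and T cell markers to at most 1.0 CPM. Of 5 stromal genes, Col1a2, Col3a1 and Dcn had at most 3 counts in every library, whereas Pdgfra averaged 0.233 CPM in WT, 4.63 in WTL, 0.499 in WT + JSH23 and 1.57 in WTL + JSH23. In bulk samples, fewer cells of a type and less RNA per cell cannot be told apart.

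Inhba was low in untreated BMDCs, intermediate after JSH-23 alone and high after LPS, and it was highest when LPS followed JSH-23. In WT, replicates 4, 5 and 6 had 44.2, 42.5 and 40.5 CPM. In WTL they had 1690.0, 1551 and 1431 CPM. In WT + JSH23, replicates 1, 2 and 3 had 195.8, 223.2 and 323.8 CPM. None of these groups overlapped, and replicate 3 lay above the others of WT + JSH23. In WTL + JSH23 the values were 2014, 2059 and 2405 CPM, again with replicate 3 above the others, and every library of the group lay above every WTL library.

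The mean level of Inhba was 42.4 ± 1.83 CPM in WT, 1558 ± 129.5 in WTL, 247.6 ± 67.4 in WT + JSH23 and 2159 ± 214 in WTL + JSH23 (SD, n = 3). LPS thus came with a 36.8-fold higher level without JSH-23 (log2 change 5.20) and an 8.72-fold higher level after JSH-23 (3.12). The JSH-23 groups differed from their partners in the same direction at rest and under LPS. At rest the level with JSH-23 was 5.84-fold that without it (log2 2.55), and under LPS it was 1.39-fold (log2 0.47). The interaction of -2.07 therefore stood beside a level that was higher with JSH-23 both at rest and under LPS. Leaving out 1 library at a time gave interactions between -2.22 and -1.83. Inhba was chosen by this value over the same libraries, so that range is a description and no test of it. The order of the 4 groups by level was WT, WT + JSH23, WTL and WTL + JSH23, and no neighbours in it overlapped.

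On the scale of TPM, which also divides by transcript length, Inhba rose in rank among the 21899 protein-coding genes from 6511 in WT to 1814 in WT + JSH23, 423 in WTL and 267 in WTL + JSH23. Its TPM was 12.4 ± 0.501, 72 ± 20.7, 366 ± 20.2 and 565 ± 82.5 in those groups. Counts behind these values ran from 1174 to 56822 per library. An antisense gene, Gm48444, and a pseudogene, B230303A05Rik, lie within the locus on the other strand and had 66 and 990 counts over all 12 libraries, and the strand setting of the counting was not given in the sources used here. The stromal gene Pdgfra was also higher in the groups with LPS, and its part in the level of Inhba was not tested, while collagen genes of that marker list were at or near 0.

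**Figure D1:**
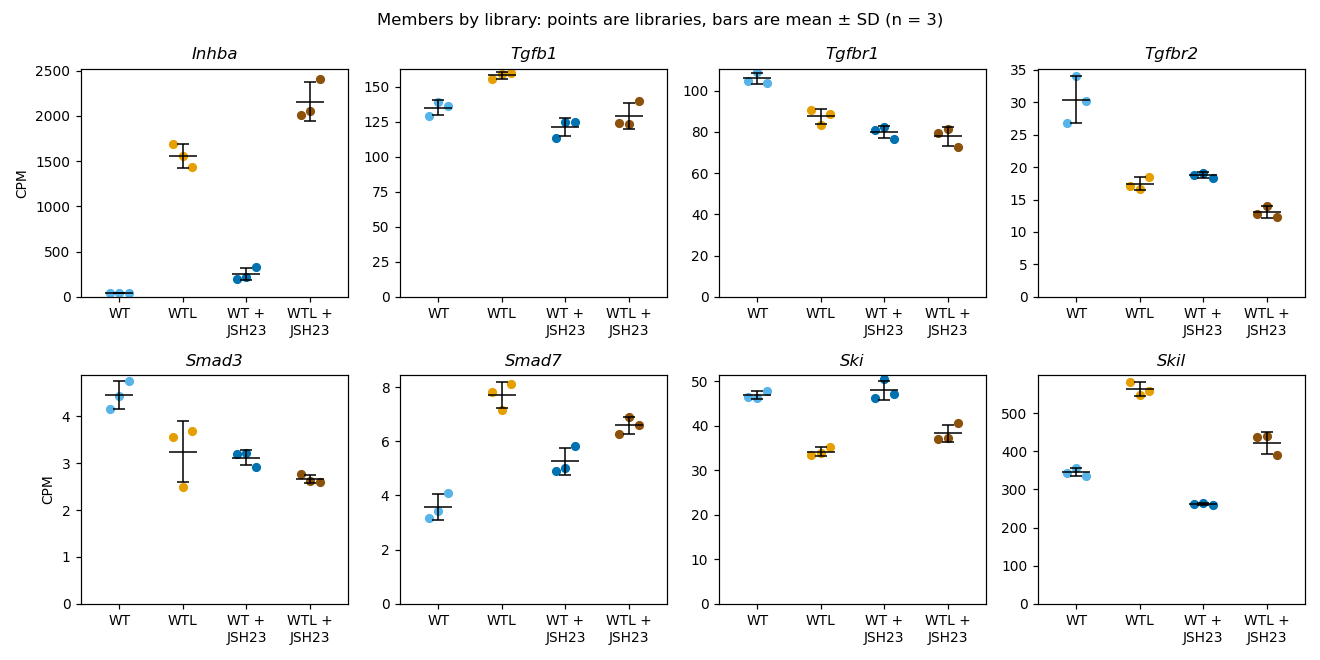
Level of each of the 8 members in the 4 groups. Points are libraries, bars are the mean ± SD of 3 libraries, and the vertical axis is CPM from 0 with its own range in each panel. Inhba means run from 42.4 CPM in WT to 2159 CPM in WTL + JSH23, whereas Tgfbr2 is highest in WT and lowest in WTL + JSH23.

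Tgfb1, the gene for the ligand TGF-β1, varied little beside Inhba. WT replicates 4 to 6 had 128.8, 139.2 and 136.4 CPM, and WTL replicates had 155.4, 159.4 and 159.8 CPM. WT + JSH23 replicates 1 to 3 had 113.6, 124.7 and 124.9 CPM, and WTL + JSH23 replicates had 124.4, 123.5 and 139.8 CPM. All WTL libraries lay above all others, and the WTL + JSH23 libraries overlapped both WT and WT + JSH23.

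With LPS alone Tgfb1 rose 1.17-fold (log2 0.23, SE 0.0489, adjusted p = 0.000301), a direction that turned on the TPM scale (log2 -0.10, adjusted p = 0.121). After JSH-23 its LPS change was 0.09 (adjusted p = 0.117). It was lower with JSH-23 under LPS (log2 -0.29, adjusted p = 4.22e-05). At rest the difference with JSH-23 was -0.16 (adjusted p = 0.0142), and it missed the threshold without WT replicate 5 (adjusted p = 0.07) or WT + JSH23 replicate 1 (0.109). In order of level, WT + JSH23, WTL + JSH23 and WT did not differ from their neighbours beyond the spread (adjusted p = 0.117 and 0.288), and WTL stood above them. WTL + JSH23 was lower than WT under upper quartile scaling (log2 -0.13, adjusted p = 0.0228), on the TPM scale (-0.27, 0.000898) and without WTL + JSH23 replicate 3 (-0.12, 0.0266). The interaction was -0.14 (adjusted p = 0.192), and -0.20 (0.0246) without WTL + JSH23 replicate 3. By TPM Tgfb1 ranked between 1196 and 1344 in the 4 groups.

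Both TGF-β receptor genes were highest in untreated cells. Tgfbr1, at chr4:47353222-47414931, encodes the type I receptor kinase. Its 3 WT libraries had 104.8, 108.9 and 103.9 CPM and its 3 WTL libraries 90.5, 83.5 and 88.5 CPM. With JSH-23 the levels were 81.0, 82.2 and 76.6 CPM at rest and 79.6, 81.4 and 72.8 CPM after LPS. WT stood above all other libraries, WTL above both JSH-23 groups, and the 2 JSH-23 groups overlapped.

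Tgfbr1 fell with LPS alone (log2 -0.28, SE 0.0466, adjusted p = 2.38e-05) and was lower with JSH-23 at rest (-0.41, SE 0.0465, adjusted p = 3.11e-07) and under LPS (-0.17, SE 0.048, adjusted p = 0.00693). On the TPM scale the last of these was -0.05 (adjusted p = 0.556). After JSH-23 the LPS change was -0.04 (adjusted p = 0.551), and -0.12 (0.0396) under upper quartile scaling and -0.24 (0.00784) on the TPM scale. The interaction was 0.24 (SE 0.0668, adjusted p = 0.0157), and it missed the threshold without WTL replicate 5 (0.0607) or WT + JSH23 replicate 3 (0.0504). In order of level, WTL + JSH23 and WT + JSH23 did not differ beyond the spread, and WT was above the other groups. WTL was higher than WT + JSH23 by edgeR (log2 0.13, adjusted p = 0.0204), but lower on the TPM scale (log2 -0.19, adjusted p = 0.0211), with means of 21.4 ± 1.09 TPM in WTL and 24.6 ± 1.30 TPM in WT + JSH23. This difference also missed the threshold under upper quartile scaling (0.58) and without WTL replicate 4 (0.093), WTL replicate 6 (0.0567) or WT + JSH23 replicate 3 (0.11).

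Tgfbr2 (chr9:116084293-116175360, minus strand) encodes the type II receptor that binds TGF-β first. In WT it had 26.8, 34.1 and 30.3 CPM, and in WTL 17.2, 16.7 and 18.5 CPM. In WT + JSH23 it had 18.8, 19.2 and 18.3 CPM, and in WTL + JSH23 12.8, 14.1 and 12.4 CPM. The WT libraries were the highest and the WTL + JSH23 libraries the lowest, with WTL and WT + JSH23 overlapping between them.

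Tgfbr2 fell in all 4 pairwise comparisons. The log2 changes were -0.81 with LPS (SE 0.0752, adjusted p = 5.39e-09), -0.52 with LPS after JSH-23 (adjusted p = 1.71e-05), -0.70 with JSH-23 at rest (adjusted p = 8.45e-08) and -0.41 with JSH-23 under LPS (adjusted p = 0.000383). With both agents its level was 0.430 of that in WT (log2 -1.22, adjusted p = 1.19e-11), and WTL and WT + JSH23 did not differ beyond the spread (log2 -0.11, adjusted p = 0.229) except under upper quartile scaling (-0.21, 0.0241) and on the TPM scale (-0.38, 0.00313). On the TPM scale the JSH-23 difference under LPS was -0.13 (adjusted p = 0.277). The interaction was 0.28 (adjusted p = 0.0885), and it passed the threshold without WT replicate 4 (0.37, adjusted p = 0.0188), with no filter on low counts (0.0475) and on the TPM scale (0.0271).

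Smad3 and Smad7 were low in these cells, with 60 to 156 and 104 to 215 counts per library, so their values carry more counting error than those of the other members. Smad3 (chr9:63646767-63757994, minus strand) encodes a SMAD that carries the activin and TGF-β signal. WT libraries had 4.16, 4.44 and 4.76 CPM, WTL libraries 3.56, 2.50 and 3.68, WT + JSH23 libraries 3.20, 3.22 and 2.93, and WTL + JSH23 libraries 2.76, 2.63 and 2.59. WT was above every other group, and WTL replicate 5 was the lowest library of all.

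Smad3 fell with LPS (log2 -0.47, SE 0.14, adjusted p = 0.00593) and with JSH-23 at rest (log2 -0.51, SE 0.137, adjusted p = 0.00461). Without WTL replicate 5 the LPS change was -0.30 (adjusted p = 0.063) and the JSH-23 difference under LPS, -0.27 over all libraries (adjusted p = 0.161), became -0.44 (adjusted p = 0.0191). Its LPS change after JSH-23 was -0.22 (adjusted p = 0.224). The JSH-23 difference at rest was -0.26 on the TPM scale (adjusted p = 0.226). In order of level, WTL + JSH23, WT + JSH23 and WTL did not differ from their neighbours beyond the spread, and only WT stood apart. The interaction was 0.24 (adjusted p = 0.471).

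Smad7, on chromosome 18, is the inhibitory SMAD of the set and is itself known as a target of TGF-β signaling. WT libraries had 3.18, 3.41 and 4.11 CPM and WTL libraries 7.83, 7.17 and 8.10 CPM. WT + JSH23 libraries had 4.92, 5.03 and 5.82 CPM and WTL + JSH23 libraries 6.27, 6.88 and 6.61 CPM. The 4 groups did not overlap, and their order was WT, WT + JSH23, WTL + JSH23 and WTL.

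With LPS alone Smad7 rose 2.16-fold (log2 1.11, SE 0.111, adjusted p = 1.62e-08), and with JSH-23 at rest it rose 1.47-fold (log2 0.56, SE 0.115, adjusted p = 0.000401). After JSH-23 the LPS change was 0.33 (SE 0.108, adjusted p = 0.015), which missed the threshold under upper quartile scaling (0.0656), on the TPM scale (0.0631) and without WT + JSH23 replicate 1 (0.0699), WT + JSH23 replicate 2 (0.0522) or WTL + JSH23 replicate 2 (0.057). Under LPS the JSH-23 difference was -0.22 (adjusted p = 0.0895), and 0.08 on the TPM scale, where the difference at rest was 0.23 (adjusted p = 0.205). The interaction was -0.79 (SE 0.156, adjusted p = 0.00129), and on the TPM scale -0.15 (adjusted p = 0.639). The call of the interaction was kept when any single library was left out, with values between -0.89 and -0.71.

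The co-repressor genes Ski and Skil moved in opposite directions with LPS. Ski (chr4:155154075-155222592, minus strand) had 46.4, 46.3 and 47.8 CPM in WT and 33.4, 33.8 and 35.3 CPM in WTL. It had 46.3, 50.4 and 47.0 CPM in WT + JSH23 and 37.0, 37.3 and 40.5 CPM in WTL + JSH23. The libraries without LPS overlapped one another, and all of them lay above all libraries with LPS.

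Ski fell with LPS alone (log2 -0.46, SE 0.05, adjusted p = 6.51e-08) and after JSH-23 (log2 -0.32, SE 0.0496, adjusted p = 1.09e-05). Under LPS it was higher with JSH-23 (log2 0.16, adjusted p = 0.0126), which missed the threshold with DESeq2 (0.0538) and without WTL + JSH23 replicate 3 (0.0662). At rest the JSH-23 difference was 0.03 (adjusted p = 0.651) and the interaction 0.13 (adjusted p = 0.216). In order of level WTL and WTL + JSH23 differed, and WT and WT + JSH23, the highest pair, did not differ beyond the spread.

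Skil (chr3:31095058-31122577) encodes SnoN. It had 342.7, 356.4 and 335.3 CPM in WT and 583.1, 548.6 and 559.2 CPM in WTL. It had 262.4, 263.9 and 259.2 CPM in WT + JSH23 and 437.5, 441.5 and 389.9 CPM in WTL + JSH23. No groups overlapped, and the order was WT + JSH23, WT, WTL + JSH23 and WTL, with each neighbour called different.

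Skil rose by almost the same factor with LPS without and after JSH-23, 1.64-fold (log2 0.71, SE 0.0437, adjusted p = 5.84e-12) and 1.62-fold (log2 0.69, SE 0.0441, adjusted p = 1.7e-11). It was lower with JSH-23 under LPS (log2 -0.41, SE 0.0436, adjusted p = 6.95e-08) and at rest (log2 -0.40, SE 0.044, adjusted p = 1.92e-07). Its interaction was -0.02 (SE 0.0618, adjusted p = 0.894). By TPM it ranked between 1103 in WTL and 1927 in WT + JSH23.

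Of the 7 tested members, 3 rose and 4 fell with LPS alone, in a comparison in which 65.7% of all genes tested were called (31% higher and 34.7% lower), and Smad7 alone changed more than 2-fold (16.4% of all genes did). After JSH-23, LPS came with 2 members higher, 2 lower and 3 not called (54.5% of all genes called, 27.4% higher and 27.1% lower). With JSH-23 under LPS, 1 was higher, 4 lower and 2 not called (48.7% of all genes, 24.5% higher and 24.2% lower). At rest, 1 was higher with JSH-23, 5 lower and 1 not called (41% of all genes, 18.8% higher and 22.1% lower). In the interaction, 1 was called higher and 1 lower (18% of all genes, 9.54% higher and 8.44% lower). The comparisons used to order levels, WTL + JSH23 against WT and WTL against WT + JSH23, called 62.1% and 68% of all genes. On the TPM scale, tested with limma, the counts of members higher and lower were 1 and 3 for LPS after JSH-23 (also under upper quartile scaling), 1 and 2 for WTL + JSH23 against WTL, 0 and 4 for WT + JSH23 against WT and 2 and 0 in the interaction. These shares of called members can be read only against backgrounds in which a large part of all genes was called. The median log2 changes of the 7 members were -0.276, -0.0359, -0.269, -0.397 and 0.132 in that order of comparisons, beside -0.0472, -0.0182, 0.02, -0.00783 and 0.026 over all genes tested. The comparisons share libraries with one another and are not independent.

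**Figure D2:**
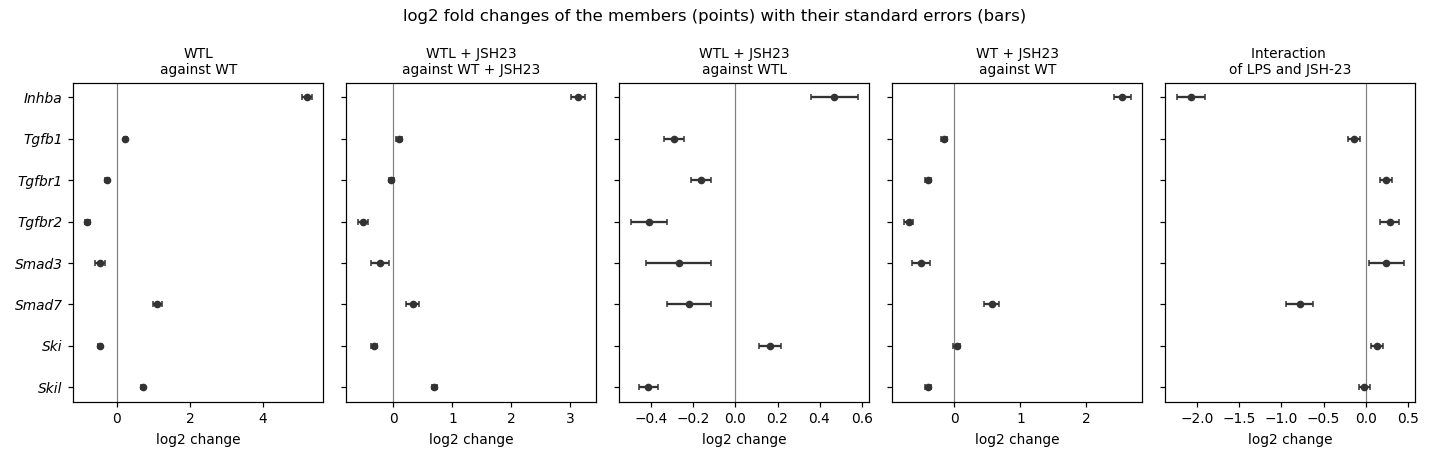
Log2 changes of the 8 members (points) with their standard errors (bars) in the 4 pairwise comparisons and the interaction, with a separate horizontal range in each panel. Inhba lies at 5.20 with LPS alone and at -2.07 in the interaction, whereas the other members lie between -0.81 and 1.11 in the first panel. The bars of Inhba are no test, since it was chosen by its interaction.

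The wider pathway was described by 9 lists holding 90 further genes, of which 55 passed the low-count filter. With LPS alone 27 of the 55 rose and 11 fell, and after JSH-23 29 rose and 8 fell. Of all genes tested, 31% rose and 34.7% fell with LPS alone, and 27.4% rose and 27.1% fell after JSH-23. With JSH-23, 13 were higher and 22 lower under LPS, and 14 were higher and 14 lower at rest. The shares of all genes were 24.5% and 24.2% under LPS and 18.8% and 22.1% at rest. The interaction was positive for 4 and negative for 11, against 9.54% and 8.44% of all genes. The edgeR counts for single lists below can be read only against these shares. The balance of higher and lower genes rested on the scaling. On the TPM scale, 20 rose and 19 fell with LPS alone, 17 rose and 13 fell after JSH-23, 16 were higher and 12 lower with JSH-23 under LPS, and the interaction was positive for 5 and negative for 7. With DESeq2 size factors the interaction was positive for 2 and negative for 13. The median log2 changes with LPS alone were 0.226 for these genes and -0.0472 for all genes.

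**Figure D3:**
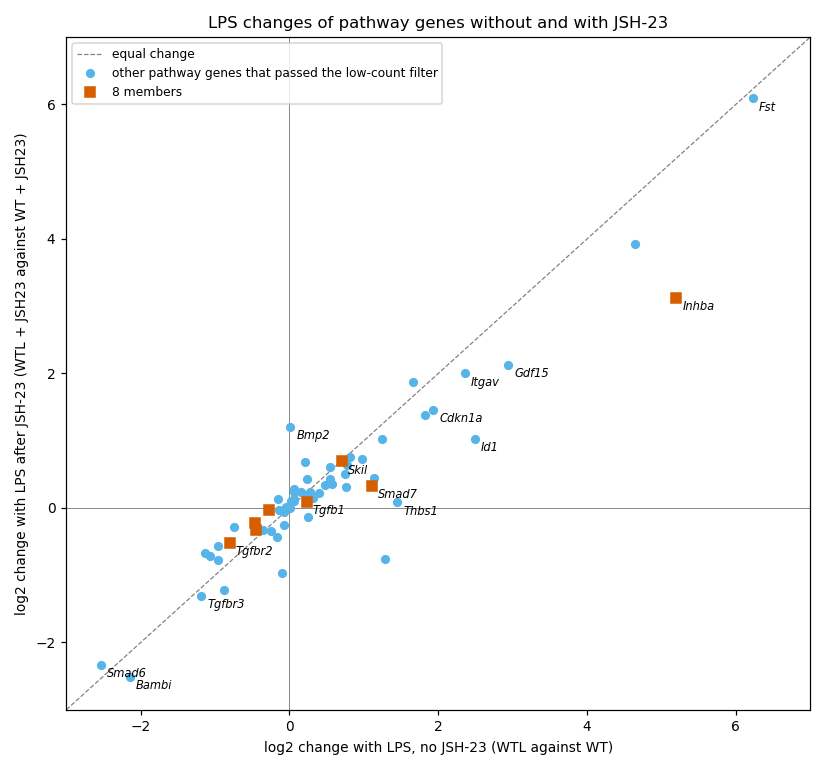
Log2 change with LPS without JSH-23 (horizontal axis) and after JSH-23 (vertical axis) for the 8 members (squares) and the 55 other pathway genes that passed the filter (circles). Points under the dashed line rose less, or fell more, with LPS after JSH-23, and Inhba lies at 5.20 and 3.12.

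Among the other ligands, 3 of 4 tested genes of the activin and TGF-β list rose with LPS by edgeR and 0 fell. With DESeq2 2 rose, and on the TPM scale 1 rose, again with 0 lower. The change of Tgfb2 was -0.04 on the TPM scale, and by edgeR its call was lost without WT replicate 4 (0.47, adjusted p = 0.0506). Tgfb2, another TGF-β isoform, was low in all groups, with means of 1.33 CPM in WT, 1.94 in WTL, 1.46 in WT + JSH23 and 2.24 in WTL + JSH23. Its rise after JSH-23 was 0.61 (adjusted p = 0.0063), and 0.28 on the TPM scale (adjusted p = 0.132). Of the BMP and GDF list, 3 of 22 genes were tested. Gdf15, a stress-induced distant relative of the family, averaged 1.64 ± 0.535 CPM in WT, 12.4 ± 0.61 in WTL, 26.4 ± 5.63 in WT + JSH23 and 116 ± 39.0 in WTL + JSH23. Like Inhba it was higher with either agent and highest with both. It rose with LPS alone (log2 2.94, SE 0.319, adjusted p = 5.77e-08) and with JSH-23 at rest (log2 4.03, SE 0.278, adjusted p = 1.2e-10), and its interaction was -0.80 (adjusted p = 0.168). Bmp2 had means between 0.50 CPM in WT + JSH23 and 1.18 CPM in WTL + JSH23, and after JSH-23 it rose with LPS (log2 1.21, adjusted p = 0.00189).

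Of 10 tested receptor and co-receptor genes, 1 rose and 3 fell with LPS alone (0 and 6 on the TPM scale), and with JSH-23 at rest 1 was higher and 2 were lower. Acvrl1, which encodes ALK1, a type I receptor for BMP9, averaged 21.8 ± 0.998 CPM in WT, 11.3 ± 0.754 in WTL, 44.7 ± 0.679 in WT + JSH23 and 26.3 ± 1.62 in WTL + JSH23. It fell with LPS (log2 -0.96, adjusted p = 3.65e-11) and was higher with JSH-23 at rest (log2 1.03, adjusted p = 2.03e-12) and under LPS (log2 1.23, adjusted p = 1.85e-12), which is the opposite direction to Tgfbr1 and Tgfbr2 for JSH-23. Tgfbr3, the co-receptor betaglycan, fell with LPS from 2.84 to 1.25 CPM (log2 -1.19, adjusted p = 2.94e-06) and after JSH-23 from 3.26 to 1.32 CPM (log2 -1.31, adjusted p = 1.05e-06). The activin type II receptor gene Acvr2b averaged between 1.27 and 2.10 CPM and the type I receptor gene Acvr1c between 0.715 and 1.06 CPM in the 4 groups.

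Of 9 tested genes for the handling of latent TGF-β, 6 rose and 1 fell with LPS alone, and 5 were lower and 3 higher with JSH-23 under LPS (1 and 4 on the TPM scale). Itgav and Itgb8 encode the 2 chains of the integrin αvβ8, which frees TGF-β from its latent complex on dendritic cells. Itgav averaged 47.8 CPM in WT, 245 in WTL, 42.6 in WT + JSH23 and 171 in WTL + JSH23, and its LPS change was 2.36 alone (SE 0.0526, adjusted p = 2.02e-19) and 2.00 after JSH-23 (SE 0.0536, adjusted p = 6.95e-18). Itgb8 averaged 92.6, 327, 144 and 377 CPM in the same order of groups, and it was higher with JSH-23 at rest (log2 0.64, adjusted p = 1.07e-09) and under LPS (log2 0.21, adjusted p = 0.00108). Furin, a protease that cleaves the precursors of TGF-β1 and activin A, rose with LPS from 121 to 286 CPM (log2 1.24, adjusted p = 3.63e-17) and after JSH-23 from 144 to 294 CPM (log2 1.03, adjusted p = 1.52e-15).

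Thbs1, for thrombospondin-1, an activator of latent TGF-β, was high after either agent. It averaged 464 ± 12.9 CPM in WT, 1270 ± 17.1 in WTL, 1451 ± 143 in WT + JSH23 and 1537 ± 83.2 in WTL + JSH23. Its change was 1.45 with LPS alone (SE 0.0544, adjusted p = 1.1e-15), 1.64 with JSH-23 at rest (SE 0.0546, adjusted p = 1.63e-15) and 0.08 with LPS after JSH-23 (adjusted p = 0.195). The interaction of -1.37 (SE 0.0755, adjusted p = 1.49e-10) had the same sign as that of Inhba.

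Of the extracellular antagonists, 2 of 7 genes were tested and they moved apart with LPS. Fst encodes follistatin, which binds and neutralizes activin A. It had 0.551, 0.427 and 0.311 CPM in WT, 35.1, 32.7 and 30.3 CPM in WTL, 0.0922, 0.181 and 0.238 CPM in WT + JSH23 and 10.7, 15.2 and 9.07 CPM in WTL + JSH23. Fst was near 0 in all libraries without LPS, with 3, 5 and 7 counts in WT + JSH23, and all WTL libraries lay above all WTL + JSH23 libraries. It rose 76.3-fold with LPS (log2 6.23, SE 0.194, adjusted p = 4.88e-17) and 68.5-fold after JSH-23 (log2 6.09, SE 0.277, adjusted p = 5.79e-14), and under LPS it was lower with JSH-23 (log2 -1.49, SE 0.116, adjusted p = 6.97e-10), where Inhba was higher. The stromal gene Pdgfra was also higher with LPS and, under LPS, lower with JSH-23 (4.63 against 1.57 CPM), and its part in these values was not tested. The other genes of the stromal list averaged at most 0.0801 CPM in any group. Bambi, a decoy receptor, fell with LPS from 1.73 to 0.389 CPM (log2 -2.15, adjusted p = 7.83e-07).

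Of 6 tested SMADs and partners, 3 rose and 0 fell with LPS alone, against 2 and 2 on the TPM scale. Smad2, which carries the same signals as Smad3, rose with LPS from 55.6 ± 0.415 to 82.9 ± 1.25 CPM (log2 0.58, SE 0.0404, adjusted p = 5.18e-11), in the direction opposite to Smad3, and after JSH-23 from 54.4 to 70.0 CPM (log2 0.36, adjusted p = 1.6e-07). Smad1, a SMAD of BMP signaling, rose from 14.4 to 24.2 CPM (log2 0.75, adjusted p = 1.91e-09) and after JSH-23 from 13.5 to 19.0 CPM (log2 0.50, adjusted p = 2.95e-06). The shared partner Smad4 averaged between 61.3 and 77.8 CPM, and the BMP SMAD Smad5 between 19.0 and 22.5 CPM. Their LPS changes after JSH-23, 0.24 and 0.25 by edgeR, were near 0 on the TPM scale.

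Of 9 further intracellular negative regulators, 5 rose and 3 fell with LPS alone (3 and 4 on the TPM scale), and with JSH-23 at rest 5 were higher and 2 lower. Smad6, the other inhibitory SMAD, averaged 5.16 ± 0.114 CPM in WT, 0.912 ± 0.339 in WTL, 1.68 ± 0.45 in WT + JSH23 and 0.329 ± 0.0558 in WTL + JSH23. It fell with LPS (log2 -2.54, SE 0.212, adjusted p = 8.85e-10) and with JSH-23 at rest (log2 -1.63, SE 0.185, adjusted p = 2.7e-07), whereas Smad7 rose in both comparisons. Pmepa1, a TGF-β target that binds SMAD2 and SMAD3, rose with LPS from 6.51 to 14.3 CPM (log2 1.13, adjusted p = 1.48e-09), and its interaction was -0.70 (SE 0.14, adjusted p = 0.00148). Tgif2, a co-repressor gene, fell with LPS from 6.86 to 3.13 CPM (log2 -1.14, adjusted p = 5.51e-08). Nedd4l, a ubiquitin ligase, rose with LPS after JSH-23 from 34.2 to 55.2 CPM (log2 0.69, adjusted p = 1.65e-08), and its interaction was 0.47 (adjusted p = 0.0016). Of the 2 regulators that favor the signal, the deubiquitinase gene Usp15 rose with LPS from 101 to 133 CPM (log2 0.40, adjusted p = 1.81e-08), and Rnf111 (Arkadia) averaged between 82.8 and 93.3 CPM.

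**Figure D4:**
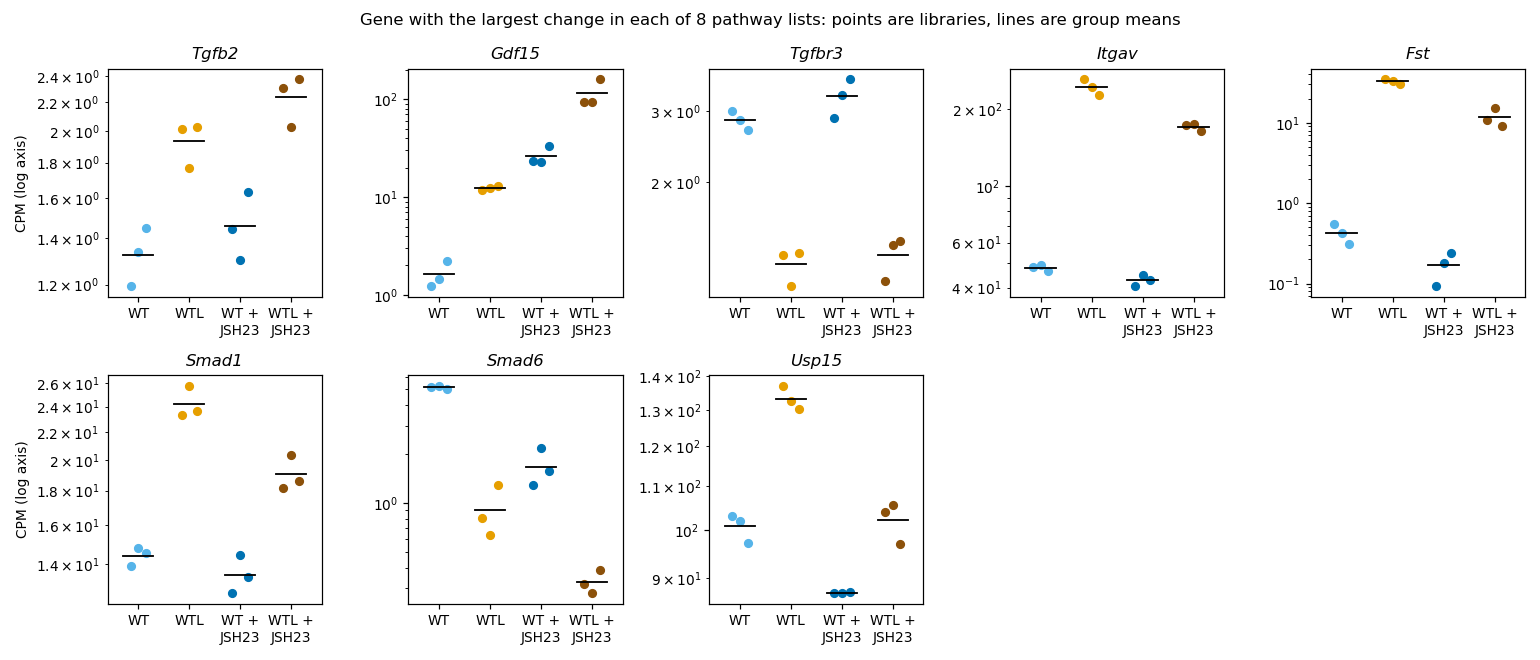
Level of the gene with the largest change in each of 8 of the 9 lists, among genes with a mean of at least 1 CPM in a group, members excluded. Points are libraries, lines are group means, and the vertical axes are CPM on log scales with separate ranges. Gdf15 rises from 1.64 CPM in WT to 116 CPM in WTL + JSH23, and Smad6 falls from 5.16 to 0.329 CPM.

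Of 10 tested genes known to respond to SMADs, 6 rose and 2 fell with LPS alone (5 and 3 on the TPM scale), and with JSH-23 under LPS 1 was higher and 7 were lower. Cdkn1a, the gene for the cell cycle inhibitor p21, rose with LPS from 560 to 2129 CPM (log2 1.93, adjusted p = 6.18e-21), and under LPS it was lower with JSH-23 at 1153 CPM (log2 -0.89, adjusted p = 8.37e-15). Id1 averaged 0.345 CPM in WT, 1.99 in WTL, 0.309 in WT + JSH23 and 0.644 in WTL + JSH23, and Id3 fell with LPS from 5.77 to 3.14 CPM (log2 -0.88, adjusted p = 3e-06). These genes respond to many other signals, and they were read here as members of a list. Pdgfra was at 4.63 CPM in WTL and 1.57 CPM in WTL + JSH23, and its part in the lower values with JSH-23 was not tested. The other genes of the stromal list averaged at most 0.0801 CPM in any group.

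Among the 5 genes whose log2 CPM followed Inhba most closely over the 12 libraries were Sh3bp5 (Pearson r = 0.998), Cxcl3 (0.997), D16Ertd472e (0.996) and Mmp13 (0.995), out of 8043 protein-coding genes that reached 10 CPM in a group. The libraries fall into 4 treatment groups, so r describes mainly the order of 4 group means and is given as a description. Cxcl3, a chemokine of neutrophils, averaged 362.5 ± 13.96 CPM in WT, 3363 ± 71.9 in WTL, 1139 ± 93.1 in WT + JSH23 and 4317 ± 125 in WTL + JSH23. RSEM divided some reads of Cxcl3 with other genes in 11 libraries. Mmp13, a collagenase, averaged 109 ± 7.77, 412 ± 40.6, 206 ± 19.2 and 488 ± 42.2 CPM in the same order. Sh3bp5 averaged 19.7, 69.9, 35.5 and 75.0 CPM, and it overlaps Capn7 in the annotation. D16Ertd472e averaged 5.57, 23.6, 11.2 and 24.9 CPM. Like Inhba, these 4 genes had their lowest mean in WT and their highest in WTL + JSH23, a likeness that their selection by r largely fixed. Of the other members, Tgfbr2 had r = -0.92, Ski -0.81, Tgfbr1 -0.74, Skil 0.62 and Tgfb1 0.31 with Inhba, while Smad3 and Smad7 did not reach 10 CPM in any group.

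**Figure D5:**
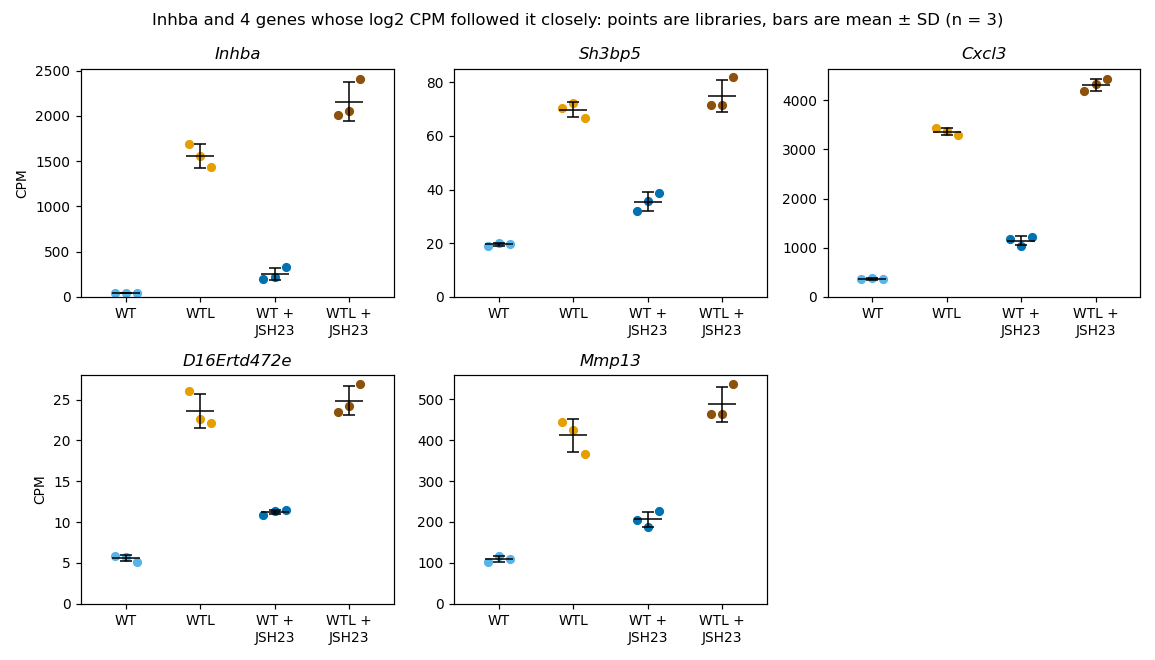
Level of Inhba and of 4 of the 5 genes with the highest Pearson r to it over 12 libraries. Points are libraries, bars are the mean ± SD of 3 libraries, and the vertical axes are CPM from 0 with separate ranges. In each panel the means rise from WT over WT + JSH23 and WTL to WTL + JSH23.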

How the data were processed

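Poly(A) or rRNA-depleted RNA of the 12 libraries had been sequenced, since the labels and the methods name different kits. The authors trimmed reads with Trim Galore, aligned them to mm10 with STAR (2.6.0c in the submitters' processing notes, another release in the study's reporting summary) and deposited RSEM expected counts per gene. The deposited TPM values were computed by the authors from the same estimates and transcript lengths. The GENCODE release and the strand setting are not given in the sources used here. Symbols and positions were taken from GENCODE M21, which is on the same build, by gene identifier without version (55154 of 55335 matched).

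Expected counts were rounded to whole numbers, filtered with filterByExpr (14357 genes) and scaled by TMM in edgeR 4.0.16 (R 4.3.3). TMM factors ran from 0.859 to 0.880 in WTL, 0.939 to 0.956 in WTL + JSH23, 1.08 to 1.10 in WT and 1.11 to 1.12 in WT + JSH23. All 12 libraries entered a quasi-likelihood F-test with 1 mean per group (8 residual degrees of freedom), and p values were adjusted by Benjamini-Hochberg over all genes tested, with calls at an adjusted p under 0.05. SE is the absolute log2 change divided by the square root of F. The code of the fit was run on simulated data in which few genes changed, so that run did not test the scaling where many genes change.

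The members and lists were chosen with earlier results of these data known. From each list, up to 4 genes with a mean of at least 1 CPM in a group and the largest absolute change in a pairwise comparison were named, together with the 5 protein-coding genes most correlated with Inhba. Of the genes that this rule names, 2 are not reported here. Il12b, Shisa3 and Dll4, and the genes of the closing observations, were named after their values were seen.

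Alternatives were DESeq2 size factors and upper quartile scaling in edgeR, no filter on low counts, DESeq2 1.42.0, limma 3.58.1 on log2(TPM + 1), a replicate block, and each library left out. Same-numbered libraries were checked for shared deviations from their group means. Correlations were 0.0365, -0.0344 and 0.0357 for WT with WTL (numbers 4 to 6). For the JSH-23 pairs (numbers 1 to 3) they were 0.201, 0.0643 and 0.333. Number 1 of WT + JSH23 with number 3 of WTL + JSH23 gave -0.247, and number 3 with number 1 gave -0.271. The numbers were not taken to pair the libraries, and whether JSH-23 libraries of the same number shared a preparation was not tested.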

Additional observations from a re-analysis of the deposited data

Results flagged for a closer look

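The LPS change differed without and after JSH-23, by the interaction term of edgeR, for 2 of the 7 tested members. It also differed for 11 of the genes of the wider lists that are named in the text. The named genes were picked for large pairwise changes or after their values were seen. Over all 55 tested genes of the wider lists, 4 were called positive and 11 negative, and 18% of all genes tested were called. For the members the log2 difference was 0.24 for Tgfbr1 and -0.785 for Smad7. It was negative for the latent TGF-β genes Itgav (-0.354), Itgb8 (-0.433), Thbs1 (-1.37) and Furin (-0.211), for Smad2 (-0.211), Pmepa1 (-0.695) and Usp15 (-0.173), and for Cdkn1a (-0.463). It was positive for Nedd4l (0.474), Tgfbi (0.399) and Acvr1b (0.217), of which Acvr1b (adjusted p = 0.0403) missed the threshold with DESeq2 (0.0768), with DESeq2 size factors in edgeR (0.0715) and in 8 of the 12 fits that left out 1 library. For Usp15 (adjusted p = 0.0433) the call was lost in 10 of the 12 fits that left out 1 library, with values between -0.197 and -0.137. On the TPM scale the interaction missed the threshold for Smad7, Itgav, Furin, Smad2, Pmepa1 and Usp15. Groups of 3 libraries were not searched for outlying samples.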

How the results depend on the processing

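Counts of called members stayed within 1.5 times the reported count except in 2 cases. With limma on log2(TPM + 1), 3 rather than 5 members were called with JSH-23 under LPS, and with 1 library left out the interaction called between 1 and 3 members rather than 2 (1 without WTL replicate 5 or WT + JSH23 replicate 3, where Tgfbr1 was lost). The TPM fit moved the median of all genes to -0.26 with LPS and -0.163 with LPS after JSH-23, against -0.0472 and -0.0182, and upper quartile scaling to -0.129 and -0.102. On the TPM scale the LPS change turned for Tgfb1 (-0.10), Tgfb2 (-0.039) and Acvr2a (-0.079), WTL against WT + JSH23 for Tgfbr1 (-0.19) and Smad3 (-0.18, and -0.054 under upper quartile scaling), the LPS change after JSH-23 for Tgfb1 (-0.11), Smad4 (-0.0042), Smad5 (-0.0071) and Rnf111 (-0.12), the JSH-23 difference under LPS for Smad7 (0.083) and the interaction for Skil (0.17), and the LPS change of Inhba was 4.78. The cause was not tested. Values near 0 also turned with a library left out, with ranges from -0.068 to 0.0100 for Tgfbr1 (LPS after JSH-23), from -0.0060 to 0.057 for Ski (JSH-23 at rest), from -0.050 to 0.218 for Smad3 (WTL against WT + JSH23) and from -0.048 to 0.039 for the interaction of Skil. A fit with the replicate number as a block, possible for the comparisons that share numbers, changed no count of called members by over 1.5 times. Under this replicate block the only changed call of a member was Tgfb1 with LPS after JSH-23 (0.09, adjusted p = 0.0499), and no named gene lost its call. In the latent TGF-β list 6 rather than 5 genes were called higher with LPS after JSH-23. Thbs1 (0.083) was the only gene of that list with a positive change that the fit without the block had not called. WT replicates 5 and 6 and WT + JSH23 replicate 2 correlated best with a library of another number.

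The 3 libraries per group limit small changes, and several calls under 0.3 in log2 rested on single libraries. Smad3 and Smad7 were limited by depth, with at most 215 counts per library.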

Other observations

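Inha, which encodes the inhibin α chain that pairs with the Inhba product to form inhibin A, was at 0 CPM in all 4 groups, which allows a level of up to 3 counts per library. The activin receptor genes Acvr2a (type II) and Acvr1b (type I) were detected in all groups. Acvr2a averaged 17.3 CPM in WT, 20.3 in WTL, 15.8 in WT + JSH23 and 21.3 in WTL + JSH23, and it rose with LPS alone (log2 0.23, adjusted p = 0.00274) and after JSH-23 (log2 0.43, adjusted p = 6.88e-06), but on the TPM scale these changes were -0.08 (adjusted p = 0.448) and 0.15 (0.164). Acvr1b averaged 52.5, 54.7, 50.6 and 61.3 CPM in the same order, with an LPS change of 0.06 alone (adjusted p = 0.298) and 0.28 after JSH-23 (adjusted p = 8.66e-05), the latter 0.07 on the TPM scale (adjusted p = 0.325). Of the genes of the wider lists, 35 did not pass the low-count filter, among them Nodal, Mstn, Nog and Smad9.

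Tgfbi, a secreted protein known as a TGF-β target, fell where Inhba rose. It averaged 452 CPM in WT, 232 in WTL, 215 in WT + JSH23 and 145 in WTL + JSH23. Its changes were -0.96 with LPS (adjusted p = 7.01e-11), -1.07 with JSH-23 at rest (adjusted p = 4.14e-11) and -0.67 with JSH-23 under LPS (adjusted p = 7.02e-08). Lrrc32 and Nrros, which encode anchors of latent TGF-β, both rose with LPS. Lrrc32 went from 21.9 to 37.4 CPM (log2 0.77, adjusted p = 1.7e-06) and Nrros from 142 to 250 CPM (log2 0.82, adjusted p = 1.71e-12). With JSH-23 at rest Lrrc32 was at 39.6 CPM (log2 0.86, adjusted p = 7.61e-07) and Nrros at 130 CPM.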
